A study of Mus musculus with 6 samples.

Results

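The Aurora kinases and their partners steer chromosomes through both meiotic divisions, and this account follows the mRNAs of 9 such genes in mouse germinal vesicle oocytes that lost the zinc finger gene Prdm10. The genes are Aurka, Aurkb and Aurkc (the Aurora kinases), Plk1 (polo-like kinase 1), Incenp, Birc5 and Cdca8 (the other passenger complex subunits), and Tpx2 and Bora (kinase activators). They were listed by name, with earlier results of these data known, and are 9 of 27179 entries in the count tables. There were 3 libraries labelled maternal Prdm10 knockout and 3 labelled wildtype, each from a pool of about 10 oocytes arrested in the prophase of the first division. In the knockout, exon 5 of Prdm10, placed between loxP sites, was removed by Cre driven by the Zp3 promoter, which switches on once an oocyte grows, so earlier stages and the surrounding somatic cells kept the gene. The labels give no strain, age or mouse for any pool, and do not say whether wildtype pools carried the floxed allele or Cre. The p-values therefore measure the spread between pools, which may be partly technical.

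Aurora A works at spindle poles, where TPX2 binds and activates it. Aurora B, or in germ cells mostly Aurora C, is the enzyme of the chromosomal passenger complex, which corrects faulty kinetochore attachments and later guides cytokinesis. In that complex INCENP is the scaffold that activates the kinase, and survivin (Birc5) and borealin (Cdca8) bring it to the centromere. Bora, once phosphorylated, lets Aurora A switch on PLK1. A germinal vesicle oocyte stores such mRNAs before the divisions in which the proteins act, so a stored level is not a kinase activity.

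The 3 kinases are close relatives, which matters for how reads are assigned to them. The stretch of 90 coding bases around the longest run shared by Aurkb and Aurkc is shown for all 3, 5′ to 3′, with capitals at the 57 positions that all 3 have in common.
Aurka: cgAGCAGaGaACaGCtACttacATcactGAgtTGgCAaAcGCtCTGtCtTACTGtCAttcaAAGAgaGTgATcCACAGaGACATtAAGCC
Aurkb: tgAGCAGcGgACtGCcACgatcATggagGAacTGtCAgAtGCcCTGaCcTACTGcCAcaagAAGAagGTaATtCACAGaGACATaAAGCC
Aurkc: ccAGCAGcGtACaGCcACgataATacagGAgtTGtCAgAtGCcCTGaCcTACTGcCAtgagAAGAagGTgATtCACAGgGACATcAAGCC
Each stretch is joined from 2 exons, within chr2:172359833-172362793 on the minus strand for Aurka, chr11:69048626-69048801 on the plus strand for Aurkb and chr7:6997634-7000049 on the plus strand for Aurkc (GRCm38, GENCODE M21 transcripts). From the Aurkb stretch, Aurkc differed at 14 bases and Aurka at 30. Over the aligned coding sequences Aurkb and Aurkc were 73.2% identical, Aurka and Aurkb 66.4%, and Aurka and Aurkc 65.6%. The longest identical runs were 25, 20 and 12 bases, and no window of 50 bases of Aurka or Aurkb occurred in a transcript of any other annotated gene.

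Aurkc has a different kind of relative. In GENCODE M21, 10 pseudogenes share at least 1 window of 50 bases with it, 9 of them on chromosome 7, the chromosome of Aurkc itself. The best match without gaps to the same 90 coding bases of Aurkc differed at 0 (Gm12463) to 22 bases (Gm7207) over the 10 pseudogenes. These bases are shown for Aurkc and the transcribed Gm7789 (chr7:10991611-10994005, minus strand), with capitals at the only 2 bases that differ.
Aurkc: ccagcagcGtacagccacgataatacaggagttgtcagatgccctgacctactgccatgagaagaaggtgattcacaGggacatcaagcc
Gm7789: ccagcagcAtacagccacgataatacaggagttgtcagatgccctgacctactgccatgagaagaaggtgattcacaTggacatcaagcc
Gm12463, a processed pseudogene on chromosome 4 that lacks introns, is identical to Aurkc over 704 bases. Of the windows of the longest Aurkc transcript, 63.7% were shared with another gene at 50 bases, 54.8% at 75 bases and 50.5% at 100 bases. Neither the read length nor the handling of reads that fit more than 1 place was given in the sources used here, so Aurkc values are uncertain as absolute levels. Only 2 of the 10 pseudogenes had an entry in the counts: Gm7789, at 128 to 187 counts in knockout and 192 to 446 in wildtype libraries, and Gm6909, at 5 to 28 counts over all libraries. Aurkc itself had 2150 to 4272 counts. Plk1 had 10.9% of its windows shared, with the processed pseudogene Plk-ps1 and with Gm44985, annotated on the opposite strand inside Plk1. The other members shared at most 1.52%.

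Library totals ran from 22492228 to 38831227 counts, and each member had between 821 and 31622 counts in every library, so counting error alone, on reads with no molecular identifiers described, was at most 3.49% of a value. All 9 passed the filter on low counts. Prdm10 itself, the check of the labels, had 2.80 to 3.82 CPM in knockout libraries. It had 10.4, 23.1 and 23.0 CPM in wildtype replicates 1 to 3. CPM expresses a gene's count relative to its library's total after scaling by the trimmed mean of M values. Wildtype replicate 1 stood apart, with Spearman correlations across genes of 0.975 and 0.976 with the other wildtype libraries, against 0.995 to 0.997 within the knockout. Wildtype replicates 2 and 3 correlated at 0.996 with each other and at 0.978 to 0.981 with the knockout libraries. They were thus closer to the knockout than to wildtype replicate 1 by this measure. Results are therefore also given without wildtype replicate 1. Summed oocyte markers (Zp1 to Zp3, Gdf9, Bmp15 and others, 10 genes) lay between 26859 and 28341 CPM in knockout and between 24795 and 28436 CPM in wildtype libraries, and 15 granulosa and cumulus markers between 104 and 148 and between 102 and 179 CPM. The oocyte sums hide shifts of wildtype replicate 1 in both directions. Bmp15 had 2106 CPM there against 5606 and 5370 CPM in wildtype replicates 2 and 3, and Kit 167 against 480 and 461 CPM. Ooep had 4045 against 2353 and 2246 CPM, and Oosp1 2293 against 1201 and 1179 CPM. Of 7 theca and stroma markers the sums were 4.63 to 6.67 and 4.07 to 8.21 CPM. The 4 markers of dividing somatic cells, in part also present in oocytes, summed to 719 to 746 CPM in knockout and 702 to 768 CPM in wildtype libraries. Their log2 fold changes were -0.47 for Mki67, -0.29 for Top2a, -0.02 for Cdk1 and 0.18 for Ccna2. None had an adjusted p under 0.05 in edgeR. The 6 blood and endothelial markers summed to 114 to 117 CPM in knockout and 34.1 to 77.2 CPM in wildtype libraries, nearly all of it Pecam1 and Cd68, while Cdh5 and Hba-a1 were at 0 in every library; their part in the results was not tested. A library is a pool, so fewer contributing oocytes and less RNA per oocyte cannot be told apart.

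In wildtype oocytes the members spanned a wide range of levels, with Aurka, Birc5 and Cdca8 on top and Aurkb lowest. Levels between genes are compared per kilobase of the longest protein-coding transcript. On that scale Aurka had 234 ± 42.7, Birc5 234 ± 8.52 and Cdca8 220 ± 10.2 CPM per kb (SD, n = 3 each). These 3 overlapped in their ranges, so their order is not resolved. Plk1 followed at 156 ± 22.2 CPM per kb, and its highest library (169) lay below the lowest of Aurka (186), Cdca8 (209) and Birc5 (228 CPM per kb).

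Aurkc came next at 75.3 ± 2.12 CPM per kb, clear of Plk1 above and of Tpx2 below. Tpx2 (46.7 ± 9.19), Bora (43.9 ± 17.9) and Incenp (38.7 ± 2.91 CPM per kb) overlapped one another, and Aurkb was last at 20.3 ± 4.71 CPM per kb, with no overlap with Incenp. Even Aurkb stood at the 73.6th percentile of tested genes by this measure, and Aurka at the 98.0th. Per kilobase of coding sequence, Birc5 moved to the top at 1842 ± 67.2 CPM per kb, where the longest complete coding sequence of 423 bases comes from another transcript than the longest one of 3334 bases, whereas Aurkc stayed next below Plk1 and Aurkb stayed last. The place of Aurkc depends on its length: per kilobase of the 491 windows of 50 bases that no other gene shares, it had 215 ± 6.04 CPM. That is above Plk1 at its full length (an alternative added after the values were seen). It takes reads from shared windows as not counted, which is not known here.

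Aurkb and Aurkc, which encode the kinases named above as the enzyme of the passenger complex, fell in the knockout, and the other 7 members did not pass the test. This is 2 of 9 members called, or 22.2%, where 11.2% of all 14957 tested genes were called at an adjusted p under 0.05 (edgeR's quasi-likelihood test, Benjamini-Hochberg over all tested genes); both were lower, against 5.34% of all genes called lower, and 0 were higher, against 5.87%. With 9 members, that count differs from the background by a single gene. The median log2 fold change of the members was 0.11 and that of all tested genes -0.00.

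**Figure D1:**
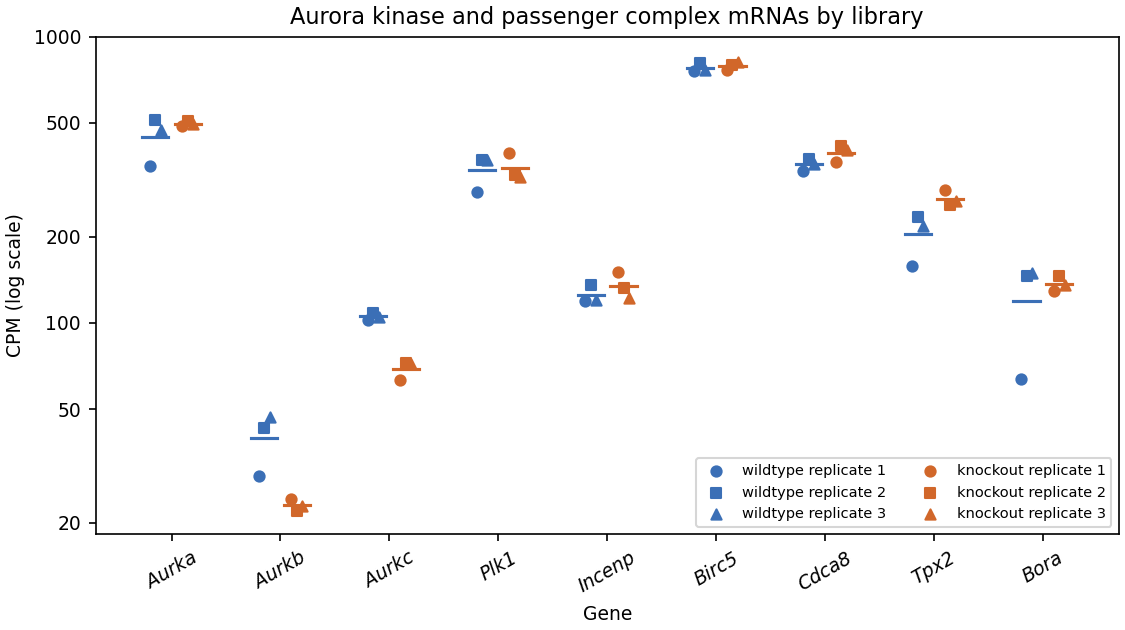
CPM on a log scale for each of the 9 genes, with 1 symbol per library, wildtype in blue and knockout in orange, and a bar at each group's mean. The knockout libraries lie below all wildtype libraries for Aurkb (21.9 to 24.3 against 29.2 to 46.7 CPM) and Aurkc (63.4 to 72.2 against 103 to 109 CPM), and the blue circle of wildtype replicate 1 is well below the other points for Aurka, Tpx2 and Bora.

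Aurkc, the Aurora kinase found mainly in germ cells (Entrez 20871, GRCm38 chromosome 7, 6995347 to 7003091), had 63.4, 72.2 and 71.8 CPM in knockout replicates 1 to 3 and 103, 109 and 105 CPM in wildtype replicates 1 to 3. The groups were well apart, and wildtype replicate 1 did not differ from its group here. Aurkc was 1.53-fold lower, at 69.1 ± 5.01 against 105 ± 2.97 CPM (SD, n = 3 each; log2 -0.61, SE 0.112, adjusted p = 0.0161, edgeR). Gm7789, whose reads could be confused with those of Aurkc, fell as well, from 9.07 ± 1.66 to 4.49 ± 0.636 CPM (log2 -1.02, adjusted p = 0.0192, edgeR); whether reads of one were counted for the other was not tested.

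Aurkb, the Aurora kinase of the passenger complex in dividing somatic cells (Entrez 20877, chromosome 11, 69045624 to 69051664), had 24.3, 21.9 and 22.8 CPM in the knockout and 29.2, 42.8 and 46.7 CPM in the wildtype libraries. Here wildtype replicate 1 lay between the knockout libraries and the other wildtype pair. The fall was 1.72-fold, to 23.0 ± 1.19 from 39.6 ± 9.18 CPM (log2 -0.78, SE 0.185, adjusted p = 0.0357, edgeR). With wildtype replicate 1 left out, the log2 fold change was -0.96 for Aurkb (adjusted p = 1.91e-05, edgeR) and -0.63 for Aurkc (adjusted p = 9.53e-05, edgeR). Leaving out any 1 of the other 5 libraries ended both calls, with adjusted p of 0.0898 to 0.134 for Aurkb and of 0.0523 to 0.0900 for Aurkc, while neither changed direction.

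Aurka, the spindle pole kinase (Entrez 20878, chromosome 2, 172356190 to 172370886), had 487, 509 and 494 CPM in knockout libraries. Wildtype libraries had 355, 511 and 472 CPM, so the knockout values lay inside the wildtype range. The log2 fold change was 0.16 (SE 0.152, adjusted p = 0.524, edgeR), and 0.01 without wildtype replicate 1. The annotated span of Aurka overlaps that of Cstf1 by 242 bases, at the 5′ end of Cstf1 on the other strand (Cstf1 log2 0.06, adjusted p = 0.736, edgeR).

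Plk1, the kinase that Aurora A activates (Entrez 18817, chromosome 7, 122159435 to 122169884), had 394, 330 and 324 CPM in knockout and 286, 370 and 372 CPM in wildtype libraries. The groups overlapped, with the highest value in a knockout library and the lowest in wildtype replicate 1. Its fitted log2 difference, 0.03 (SE 0.148, adjusted p = 0.921, edgeR) became -0.09 without that library.

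**Figure D2:**
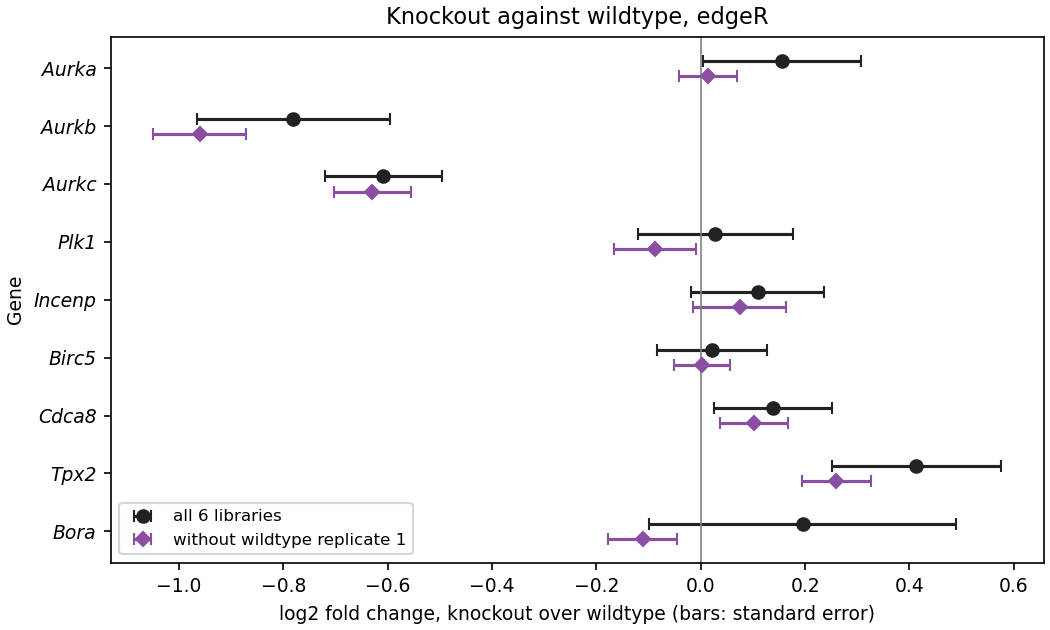
Fitted log2 fold change of knockout over wildtype for each gene, with bars of 1 standard error, from all 6 libraries (black circles) and without wildtype replicate 1 (purple diamonds). Aurkb (-0.78 and -0.96) and Aurkc (-0.61 and -0.63) lie left of 0 in both, Tpx2 (0.41 and 0.26) lies right of 0 in both, and Bora and Plk1 change sides.

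The structural subunits of the passenger complex did not pass the test. Survivin, the subunit that reads a histone H3 mark at centromeres, was even across libraries: Birc5 (Entrez 11799, chromosome 11, 117849237 to 117855743) had 763, 795 and 814 CPM in knockout and 759, 812 and 766 CPM in wildtype libraries. Those ranges nearly coincided (log2 0.02, SE 0.105, adjusted p = 0.913, edgeR). Cdca8, which encodes borealin (Entrez 52276, chromosome 4, 124918465 to 124936917), had 364, 415 and 402 CPM in knockout and 341, 373.6 and 360 CPM in wildtype libraries, with overlap through knockout replicate 1 (log2 0.14, SE 0.113, adjusted p = 0.447, edgeR).

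Incenp, the scaffold (Entrez 16319, chromosome 19, 9872295 to 9899489), had 151, 132 and 122 CPM in knockout and 120, 136 and 120 CPM in wildtype libraries, with the groups overlapping (log2 0.11, SE 0.127, adjusted p = 0.599, edgeR). A p above the threshold does not show that these levels were equal, but the standard errors bound the precision at 0.105 to 0.127 on the log2 scale. Incenp overlaps Gm19054 over 693 bases.

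Of the activators, Tpx2 was the only member whose knockout libraries all lay above its wildtype libraries. Tpx2 (Entrez 72119, chromosome 2, 152847964 to 152895321) had 291, 257 and 267 CPM in knockout and 159, 235 and 219 CPM in wildtype libraries. Wildtype replicate 1 was far below its group. The log2 fold change was 0.41 (SE 0.163), which did not pass (unadjusted p = 0.0352, adjusted p = 0.142, edgeR). Without wildtype replicate 1 it was smaller but passed, at 0.26 (adjusted p = 0.0110, edgeR).

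Bora (Entrez 77744, chromosome 14, 99046377 to 99074540) had 129, 146 and 136 CPM in knockout and 63.5, 146 and 150 CPM in wildtype libraries. Only wildtype replicate 1 was outside the range of the others, and the fitted log2 difference, 0.20 (SE 0.294, adjusted p = 0.691, edgeR), turned to -0.11 without it (adjusted p = 0.217, edgeR). Bora overlaps Mzt1 over 77 bases at their 5′ ends, and Mzt1 had 49.3 CPM in wildtype replicate 1 against 85.5 and 95.6 CPM in replicates 2 and 3.

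Counted over the members, 3 of 9 (33.3%) had knockout and wildtype libraries that did not overlap, where 40.2% of all tested genes did. Without wildtype replicate 1 the call count was 3 of 9, with Tpx2 higher and Aurkb and Aurkc lower, while 34.4% of all genes were called in that fit (16.7% higher and 17.7% lower), so the members' share (33.3%) was near the background. Wildtype replicate 1 did not shift all members alike. Relative to the mean of wildtype replicates 2 and 3 it held 0.430 times the level of Bora, 0.653 of Aurkb, 0.700 of Tpx2, 0.721 of Aurka and 0.772 of Plk1, yet between 0.929 and 0.963 times that of Aurkc, Birc5, Cdca8 and Incenp. The coefficient of variation over wildtype libraries includes wildtype replicate 1, so it restates that split. It was 40.7% for Bora and 23.2% for Aurkb but 2.81% for Aurkc and 3.65% for Birc5. Over knockout libraries it was 6.21% for Bora, 5.15% for Aurkb, 7.25% for Aurkc and 3.25% for Birc5.

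The paralogue balance was measured within each library, where the scaling of libraries cancels. Aurka made up 67.8, 73.0 and 71.4% of the summed Aurora kinase level per kb in wildtype replicates 1 to 3, and 81.6, 81.0 and 80.5% in knockout replicates 1 to 3. Aurkc made up 26.7, 21.1 and 21.7% in wildtype and 14.4, 15.6 and 15.9% in knockout libraries. The share of Aurkb was 5.47, 5.97 and 6.91% in wildtype and 3.97, 3.41 and 3.63% in knockout libraries. For each kinase the groups did not overlap. The 3 shares make up a whole in each library, so they are not separate observations. The level of Aurka itself did not pass the test (log2 0.16, adjusted p = 0.524, edgeR).

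**Figure D3:**
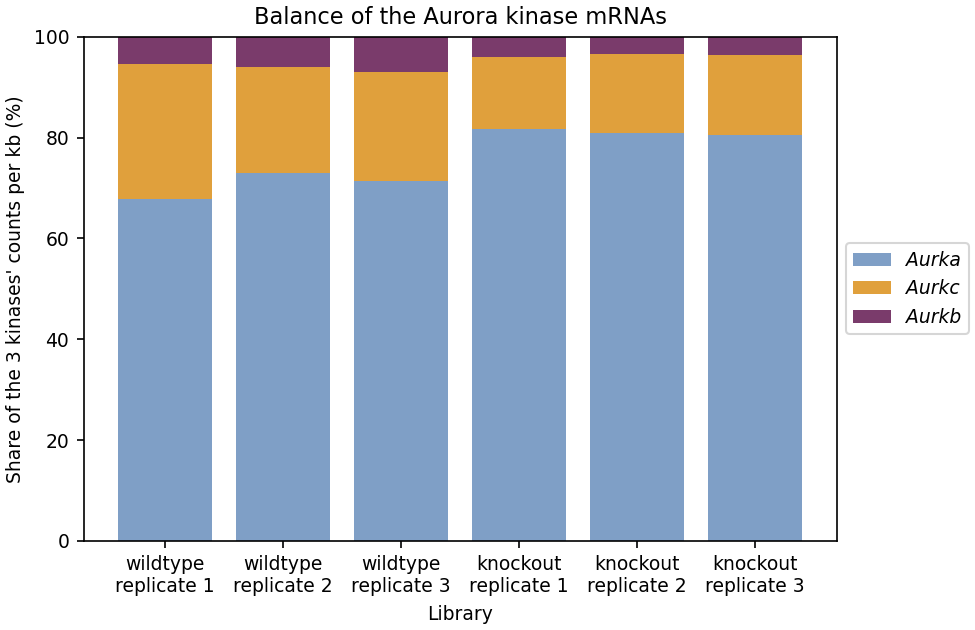
Stacked bars, from 0 to 100%, of the share of each Aurora kinase in the 3 kinases' counts per kilobase of transcript, 1 bar per library. The share of Aurka is 67.8 to 73.0% in wildtype and 80.5 to 81.6% in knockout libraries, with both other shares smaller in every knockout library.

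As a ratio, Aurka exceeded Aurkc 3.07-fold in wildtype and 5.29-fold in knockout oocytes, and exceeded Aurkb 11.6-fold and 22.1-fold. The log2 ratio of Aurkc to Aurka was lower by 0.78 in the knockout (-2.40 ± 0.085 against -1.62 ± 0.240) and that of Aurkb to Aurka by 0.93 (-4.47 ± 0.104 against -3.54 ± 0.146; SD, n = 3 each). Both gave an exact two-sided permutation p of 0.1, the smallest that 3 against 3 allows, and 0.15 adjusted over the 3 ratios, so the design cannot reach 0.05. Without wildtype replicate 1 the differences were -0.65 and -0.98. The ratio of Aurkc to Aurkb overlapped between the groups, at 2.06 ± 0.178 in knockout and 1.92 ± 0.331 in wildtype on the log2 scale (exact permutation p = 0.6, adjusted 0.6, n = 3 each). That overlap rests on wildtype replicate 1 (2.29): the other wildtype values (1.82 and 1.65) lay below all knockout values (1.86, 2.20 and 2.13), with a difference of 0.33 and an exact permutation p of 0.2. The size of the Aurkc share rests on the length it is divided by. With only those 491 unshared windows as its length, Aurkc would hold 46.1 ± 4.22% in wildtype and 34.04 ± 1.37% in knockout libraries. That alternative takes reads from shared windows as not counted.

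Within the passenger complex the transcripts of the non-kinase subunits stood higher against those of the kinases in the knockout; these ratios were chosen after the values were seen and are given without a test. For Birc5 to the sum of Aurkb and Aurkc, each per kb, the wildtype libraries had 2.58, 2.45 and 2.32 and the knockout libraries 3.97, 3.79 and 3.88. For Cdca8 they had 2.37, 2.31 and 2.23 against 3.88, 4.07 and 3.93, and for Incenp 0.419, 0.423 and 0.374 against 0.808, 0.651 and 0.599. In all 3 the groups were apart. The 3 ratios share a denominator, the sum of Aurkb and Aurkc, so they are not separate observations. Their sizes depend on the lengths used. The ratio of Birc5 to Incenp, which holds neither kinase, overlapped (5.79 to 6.20 in wildtype, 4.91 to 6.48 in knockout). Tpx2 to Aurka was nearly constant in wildtype oocytes, at 0.195, 0.201 and 0.202 with wildtype replicate 1 included, and was 0.260, 0.221 and 0.236 in the knockout.

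Around these 9 genes, 83 others with known links to them were listed by role, and 81 had enough counts to test. Of the 81, 1 rose, 3 fell and 77 did not pass, or 4.94% called against 11.2% of all tested genes, and the median log2 fold change was 0.10. Without wildtype replicate 1 there were 10 higher and 16 lower (32.1% against 34.4% of all genes) and the median was -0.02. The lists were written with earlier results of these data known.

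Among 12 partners of Aurora A, Hmmr fell and the other 11 did not pass. Hmmr, a microtubule-binding protein that helps place TPX2 on the spindle, had 14.7, 16.4 and 14.3 CPM in knockout and 26.1, 23.7 and 24.2 CPM in wildtype libraries (log2 -0.70, SE 0.126, adjusted p = 0.0147, edgeR). Its groups were far apart, and wildtype replicate 1 lay with its group. Nedd9, a scaffold that can activate Aurora A, had 38.2 ± 4.60 against 51.3 ± 13.5 CPM (log2 -0.42, adjusted p = 0.233, edgeR) and passed without wildtype replicate 1 (log2 -0.63, adjusted p = 0.000681, edgeR).

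Among 12 tested genes of the polo-like kinase family and mitotic entry control, Plk2 rose and Fbxo5 and Sugt1 fell. Plk2, a stress-responsive relative of Plk1, was scarce, at 7.28, 5.24 and 5.99 CPM in knockout and 1.46, 3.66 and 2.24 CPM in wildtype libraries (log2 1.34, SE 0.326, adjusted p = 0.0386, edgeR). Fbxo5 encodes EMI1, an inhibitor of the anaphase-promoting complex that PLK1 marks for destruction, and had 115, 113 and 120 CPM against 153, 210 and 204 CPM (log2 -0.70, SE 0.146, adjusted p = 0.0246, edgeR). Sugt1, a co-chaperone needed for kinetochore assembly, had 319, 358 and 356 CPM against 470, 441 and 469 CPM (log2 -0.42, adjusted p = 0.0490, edgeR). For these 3 genes the groups did not overlap, as in 23 of the 81 network genes (28.4%) and in 40.2% of all tested genes. All 3 also passed without wildtype replicate 1, at log2 1.05, -0.83 and -0.40. Leaving out any 1 knockout library ended the calls of these 3 and of Hmmr. Leaving out wildtype replicate 2 or 3 ended those of Fbxo5 and Sugt1, and leaving out replicate 3 that of Plk2. Over the 5 libraries other than wildtype replicate 1, the adjusted p in edgeR ran from 0.0407 to 0.0891 for Hmmr, from 0.0197 to 0.159 for Plk2, from 0.0706 to 0.123 for Fbxo5 and from 0.0957 to 0.192 for Sugt1.

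**Figure D4:**
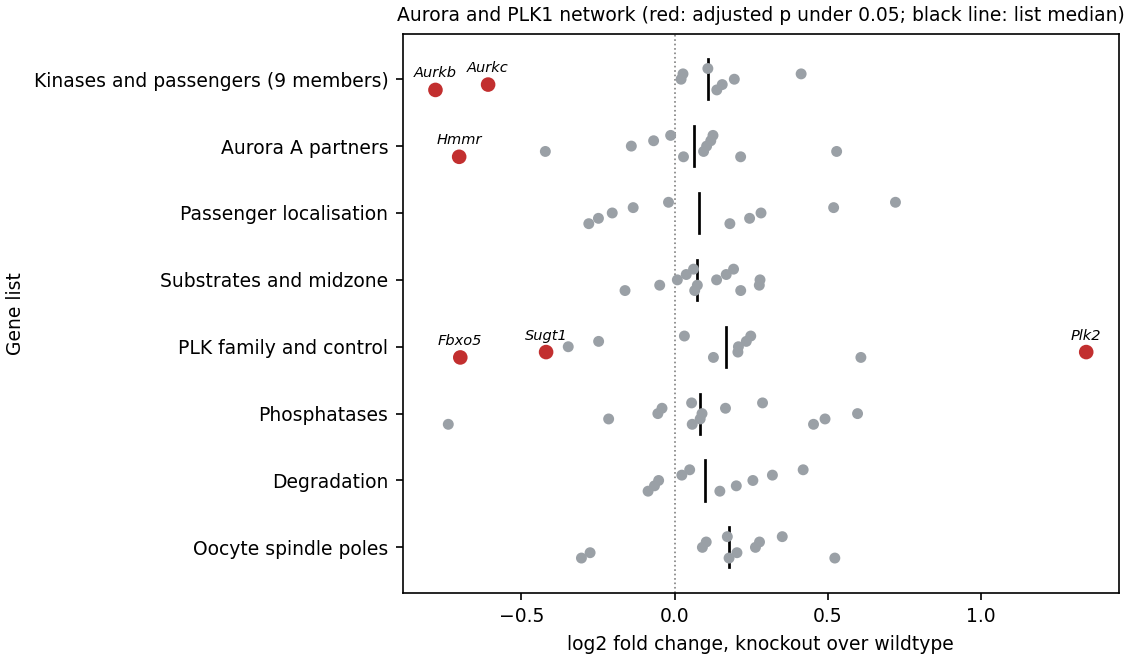
Log2 fold change of knockout over wildtype for the 9 genes and for the 7 lists around them, 1 dot per tested gene, red where the adjusted p was under 0.05, with a black line at each list's median. Red dots are Aurkb, Aurkc, Hmmr, Fbxo5 and Sugt1 to the left of 0 and Plk2 to the right, and the medians of the 7 lists lie between 0.06 and 0.18.

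No gene passed in the other 5 lists with all libraries in edgeR, whereas 18 of their 57 genes (31.6%) passed without wildtype replicate 1, 8 higher and 10 lower, where 34.4% of all genes did. Of the genes named below, Rcc2, Psrc1, Ppp6c and Odf2 were higher in that fit (adjusted p = 0.0175, 0.00209, 0.0226 and 0.00544, edgeR). Sgo2a, Ppp2r5e, Haspin and the shugoshin Sgo1 were lower in it (adjusted p = 0.0232, 0.00924, 0.0026 and 0.0115, edgeR). Of 10 genes that place the passenger complex, such as the kinase Haspin and the shugoshins, Rcc2, a protein of the inner centromere and midzone, had 98.2 ± 21.7 against 68.5 ± 1.82 CPM (adjusted p = 0.0875, edgeR) and Sgo2a, the protector of centromeric cohesion in meiosis, 74.96 ± 6.40 against 89.1 ± 1.45 CPM (adjusted p = 0.197, edgeR). Of 13 substrates and midzone proteins, Psrc1 had the smallest p (log2 0.28, adjusted p = 0.128, edgeR), then Ndc80 of the outer kinetochore (log2 0.22, adjusted p = 0.362, edgeR). These 13 had log2 fold changes between -0.16 and 0.28.

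Of 13 phosphatase subunits, Ppp2r5e, a regulatory subunit of PP2A, had 14.9 ± 1.98 against 24.9 ± 6.99 CPM (log2 -0.74, adjusted p = 0.0641, edgeR), and Ppp6c, the phosphatase that switches off Aurora A bound to TPX2, 33.0 ± 1.65 against 24.1 ± 4.50 CPM (log2 0.45, adjusted p = 0.112, edgeR). Of 10 genes that mark these kinases for degradation or act with them, the smallest p belonged to Anapc2 (log2 0.26, adjusted p = 0.232, edgeR) and Fbxw11 (log2 0.42, adjusted p = 0.326, edgeR). Of 11 spindle pole genes, Pcnt, which builds the acentriolar organising centres of the oocyte spindle, had 232 ± 23.0 against 281 ± 27.0 CPM (log2 -0.28, adjusted p = 0.205, edgeR) and Odf2 268 ± 4.72 against 187 ± 66.6 CPM (log2 0.52, adjusted p = 0.222, edgeR). Of the 57 genes tested in these 5 lists, 5 (8.77%) had an unadjusted p under 0.05 in edgeR with all libraries, against 28.8% of all tested genes. Over the 81 network genes DESeq2 called 6 (7.41%, against 17.9% of all genes) and limma-voom 27 (33.3%, against 39.7%).

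The genes whose log2 CPM followed that of Aurkc most closely over the 6 libraries were Esr2 (oestrogen receptor beta), Pabpn1l (a poly(A)-binding protein of oocytes), Slc25a13 (a mitochondrial aspartate and glutamate carrier), Zfp955b and Cndp1 (a dipeptidase), with Pearson's r between 0.996 and 0.998 among 8382 genes of at least 10 CPM. The 6 points fall into 2 genotype groups and share their libraries, so r is given as a description only. Their log2 fold changes were -0.61 for Esr2, -1.12 for Pabpn1l, -0.85 for Slc25a13, -0.63 for Zfp955b and -0.62 for Cndp1.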

How the data were processed

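The authors deposited counts of reads per gene, 1 whole-number table per library with Entrez identifiers. PicoPure extraction, SMARTer Ultra Low Input cDNA and single-end NexteraXT libraries are named per the labels' protocols. Per the submitters' processing notes, STAR 2.7.11a, featureCounts 2.0.3 and GRCm38.p6 (mm10) were used. Neither strand setting nor counting annotation was given in the sources used here, so antisense and overlapping genes cannot be separated.

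A RefSeq table of the same assembly named 25275 of 27179 identifiers. After edgeR's filterByExpr (minimum count 10), 14957 genes were scaled by TMM and tested for genotype with edgeR 4.0.16's quasi-likelihood test in R 4.3.3. Standard errors are the absolute log2 fold change over the square root of F. Lengths, coding sequences and shared windows came from GENCODE M21. The fits were tested on simulated data in which no library was made to stand apart from the others. No pair of libraries was a duplicate (chi-square per gene at least 4.60). Alternatives were DESeq2 1.42.0, limma 3.58.1 voom, other scalings and filters, a replicate block and leaving out each library.

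The members and lists were chosen with earlier results of these data known. Named genes were the members, up to 4 called genes per list (or the 2 with the smallest p), and the 5 genes most correlated with the member of smallest p; Gm7789 and other copies and overlapping genes were added after seeing the data.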

Additional observations from a re-analysis of the deposited data

How the results depend on the processing

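The fall of Aurkb and of Aurkc passed in 7 of 13 alternative settings each and kept its direction in all 13. Over all settings the log2 fold change of Aurkb ran from -0.97 to -0.64 and that of Aurkc from -0.66 to -0.55. Neither passed with the replicate number as a block, where 0 members, 0 network genes and 537 genes in all were called (adjusted p = 0.0992 for Aurkb and 0.0711 for Aurkc, edgeR); same-numbered libraries did not deviate together (correlations of -0.107 to -0.00519), so the numbers were not taken as pairs. Leaving out 1 library gave 0 to 3 called members, 0 to 26 network genes and 357 to 5199 genes in all; only the fit without wildtype replicate 1 raised these counts. Limma-voom with sample quality weights called 3 members, 27 network genes and 5943 genes in all, and Tpx2 passed there. DESeq2 called 2671 genes and the filter of 5 CPM in 3 libraries 1038. Among uncalled members, the sign of Plk1 turned with limma-voom (-0.14), as did that of Bora (-0.060). Leaving out 1 library turned it for Plk1 (-0.088 to 0.092), Bora (-0.11 to 0.39) and Birc5 (-0.0053 to 0.050). The causes were not tested. With 1 library left out, the difference in log2 ratio ranged from -0.87 to -0.65 for Aurkc to Aurka. It ranged from -0.98 to -0.84 for Aurkb to Aurka and from 0.01 to 0.33 for Aurkc to Aurkb. The length used cancels out of that difference, so other lengths are no check of it. The choice of length moved the wildtype share of Aurkc (23.1%) to 18.1% with no length and to 46.1% with only unshared windows.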
